A study of Mus musculus with 34 samples.

Results

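CTCF sites that were still called after deletion of Ctcf were examined in mouse bone marrow-derived dendritic cells (BMDCs). They were defined by 2 CTCF peak lists: a CTCF peak of unstimulated CTCF-WT cells counted as kept when a CTCF peak of unstimulated CTCF-KO cells overlapped it by at least 1 bp. Places with a peak in all 26 lists other than those of p65 were left out. Of 60537 WT CTCF peaks, 14371 overlapped a KO peak, 5 of these lay at places present in all 26 lists, and 14366 were the kept sites. The 46166 WT peaks without a KO peak are called lost sites. The overlap that chose the kept sites is a description and not a finding, and so is everything measured in the WT and KO CTCF lists.

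Bone marrow of C57BL/6 mice, 8 weeks old according to the labels, was cultured for 6 days in GM-CSF, which drives its precursors towards dendritic cells, and CD11c+ cells were selected. CTCF-WT cells carried CreER, a Cre recombinase that works only once tamoxifen is added. CTCF-KO cells carried CreER and loxP-flanked Ctcf alleles (CreER; CTCF fl/fl). CreER was expressed from the Rosa26 locus, which is broadly active, and cells of both genotypes received 4-OH tamoxifen on the day the cultures began, so the drug and the Cre were shared by all groups. Cells were left unstimulated (WT, KO) or received LPS, the bacterial ligand of the receptor TLR4, at 100 ng/ml for 3 h (WTLPS, KOLPS). CTCF, H3K27ac, H3K4me3, H3K4me1, H3K27me3, SMC1 of the cohesin ring and p65 of NF-κB were precipitated in all 4 conditions, and STAT5 in WT and KO after 15 min of renewed GM-CSF. Of 34 samples, 4 were inputs, and each of the other 30 had 1 peak list. With 1 list per condition and antibody no difference has a replicate check, so none was tested. Intervals are 95% Wilson intervals of a share, 95% Newcombe intervals of a difference between kept and lost sites, or 95% intervals of a paired difference at the same sites. All of them cover the counting of sites only.

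CTCF is a zinc-finger protein that binds a long, directional motif and stops cohesin, the ring-shaped complex that extrudes chromatin loops. Where the ring is stopped, cohesin accumulates, and convergent CTCF sites become the anchors of loops and the borders of topological domains. CTCF sites differ widely in affinity, and the repeated elements of rodents known as B2 SINEs have spread many copies of a CTCF motif through the mouse genome. SMC1 is one of the ring's core subunits. H3K4me3 marks promoters, H3K4me1 and H3K27ac mark enhancers and active promoters, and H3K27me3 marks chromatin silenced by Polycomb complexes.

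The cells carried the marks of the labelled type. All 8 dendritic cell marker genes (Itgax, Cd74, H2-Ab1, Csf2rb, Cd86, Ccr7, Irf4 and Spi1) had H3K4me3 and H3K27ac at the promoter in each of the 4 conditions. H3K4me3 lay at 2 of 6 T and B cell markers (Lck and Pax5), 0 of 2 NK cell markers, 1 of 4 neutrophil markers (S100a8) and 1 of 2 erythroid markers (Klf1) in each condition. H3K27ac lay at 1 of 2 NK cell markers in each condition, at 1 of 6 T and B cell markers in WTLPS and KOLPS and none in WT and KO, and at no erythroid marker. At neutrophil markers it lay at 0 of 4 in WT and WTLPS and at 1 of 4 in KO and KOLPS, and the part of such cells in the results was not tested. The number of fragments over the summit of each CTCF and SMC1 peak was recovered from its fold enrichment and p-value, and the background under the peaks was 2.82 to 3.74 fragments per base in the 4 CTCF libraries and 4.50 to 5.76 in the SMC1 libraries.

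The sequences of the kept sites are shown because kept and lost sites differed in the letters of the motif and in the DNA around it. The core of the CTCF motif was searched as CCANNAGNNGGC (8 fixed bases, N any base, both strands) within 50 bp of the WT summit. Below are the 10 kept sites with the highest KO fold among those that held the core, had a CTCF peak in all 4 conditions and had peaks in fewer than 20 of the 26 lists, with at most 1 site for a nearest protein-coding gene. Each stretch of 52 bases comes from GRCm38 (mm10), reads 5′ to 3′ on the strand that carries the core, has the core in capitals, and is named after the nearest protein-coding gene.
Hnrnpa3, chr2:75605865-75605916, plus strand: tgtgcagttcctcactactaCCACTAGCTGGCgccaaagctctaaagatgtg
Ccdc162, chr10:41682956-41683007, minus strand: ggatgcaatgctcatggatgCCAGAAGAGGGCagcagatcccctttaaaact
Rras2, chr7:114020983-114021034, minus strand: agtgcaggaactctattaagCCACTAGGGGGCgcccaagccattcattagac
Hcn4, chr9:58928285-58928336, minus strand: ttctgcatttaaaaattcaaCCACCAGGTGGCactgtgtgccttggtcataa
A730009L09Rik, chr16:84559761-84559812, minus strand: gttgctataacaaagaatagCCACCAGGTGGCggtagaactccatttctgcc
Stfa3, chr16:36473376-36473427, plus strand: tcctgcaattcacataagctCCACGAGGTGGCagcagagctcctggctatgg
Acbd6, chr1:155537432-155537483, minus strand: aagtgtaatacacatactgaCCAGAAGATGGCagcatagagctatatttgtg
Tent2, chr13:93243345-93243396, minus strand: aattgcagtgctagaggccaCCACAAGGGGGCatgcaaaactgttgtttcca
Uaca, chr9:60858770-60858821, minus strand: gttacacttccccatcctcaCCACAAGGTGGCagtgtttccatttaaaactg
Top1, chr2:160598003-160598054, plus strand: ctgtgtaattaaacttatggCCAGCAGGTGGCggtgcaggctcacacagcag
For comparison, the 3 lost sites with the core that had the highest WT fold read as follows.
Grpel1, chr5:36459085-36459136, plus strand: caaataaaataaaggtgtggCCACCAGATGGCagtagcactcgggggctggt
2700081O15Rik, chr19:7436440-7436491, minus strand: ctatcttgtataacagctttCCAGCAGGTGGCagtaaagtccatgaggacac
Golim4, chr3:75910459-75910510, plus strand: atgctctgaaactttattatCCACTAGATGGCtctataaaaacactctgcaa
None of these stretches lay in an untranslated region. Within the core, the letters at the N positions varied from site to site in both groups, and the Ccdc162 site carried the letters that were most frequent at lost sites, as described further on. The 3 lost sites, taken by highest WT fold, did not carry these letters, which made up 66.9% of all lost cores. A matrix built from unmasked lost sites was scored within 50 bp of the WT summit, not over the printed stretches. There the score that 1% of windows 1 kb away attained was reached at 8 of the 10 kept sites and at all 3 lost ones. The Tent2 core lay 49 bp from the summit, so the matrix at this core ran past the edge of the scored window.

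The core was found within 50 bp of the summit at 4650 of 14366 kept sites, 32.4% (31.6 to 33.1%), and at 11756 of 46166 lost sites, 25.5% (25.1 to 25.9%), against 27.1% of all WT CTCF peaks. In windows 1 kb away the core occurred at 0.954% of kept and 1.11% of lost sites. With 1 mismatch allowed the shares were 58.9% of kept and 43.0% of lost sites, against 8.55% and 8.47% in the windows 1 kb away. Of the sites with the core, 0.624% of the kept and 0.578% of the lost ones held it more than once. CTCF peaks that were called in KO and had no WT peak (4694 of the 20151 KO peaks) held the core at 0.320% of summits.

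The DNA around the core differed far more than its frequency. The stretch from 100 bp before to 100 bp after the summit was called masked when over 50% of its bases were lower case in the reference assembly, which marks repeated and low-complexity DNA without naming the family. Masked windows made up 13.9% (13.3 to 14.4%) of kept sites and 41.7% (41.2 to 42.1%) of lost sites. Of the sites that held the core, 20.4% (19.3 to 21.6%) of the kept ones and 73.8% (73.0 to 74.6%) of the lost ones lay in a masked window. The core in unmasked DNA was found at 25.8% of kept and 6.67% of lost sites, a difference of 19.1 points (18.4 to 19.9), while the core in masked DNA was found at 6.6% and 18.8%.

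The full letters of the core also differed between the groups. At lost sites with the core in masked DNA a single form made up 85.7% (85.0 to 86.4%) of the copies, and it is shown here because it was by far the most frequent form at lost sites.
Most frequent core at lost sites, and at kept sites as a whole: CCAGAAGAGGGC
Most frequent core at kept sites in unmasked DNA: CCACTAGAGGGC
Among all sites with the core, the form most frequent at lost sites made up 66.9% (66.1 to 67.8%) of lost and 18.6% (17.5 to 19.7%) of kept cores, where it was also the most frequent. It made up 74.4% of the kept cores in masked DNA. In unmasked DNA it made up 4.29% of kept and 13.9% of lost cores, and the most frequent kept form there reached only 7.27%, so no form dominated. Of the 8730 WT CTCF peaks with that form, 864 were kept, 9.90% (9.29 to 10.5%). Of the 7676 with any other letters in the core, 3786 were kept, 49.3% (48.2 to 50.4%).

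Peak strength differed between these classes, so they were also compared within deciles of all WT CTCF peaks ranked by WT −log10 q, where decile 10 is the strongest. Peaks with the form most frequent at lost sites had a median WT fold of 6.12 and the others 15.2. In decile 8 the median WT folds were close, at 13.9 and 14.3, and 26.6% (23.4 to 30.1%) of peaks with that form were kept against 43.5% (40.7 to 46.3%) of those with other forms. In decile 9 the shares were 56.5% (51.8 to 61.1%) and 77.7% (75.5 to 79.6%), and in decile 10 they were 86.7% (82.2 to 90.1%) and 96.2% (95.3 to 97.0%). The frequency of the core itself was close in kept and lost sites of the strongest deciles and lower at kept sites of the weakest, where it was 0.935% against 14.1% in decile 1. In decile 9 it was 33.8% and 32.5%, a difference of 1.24 points (−1.43 to 3.86). Masked windows remained less frequent at kept sites there, at 10.2% against 20.8%, a difference of −10.6 points (−12.8 to −8.53).

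Kept sites were the strong end of the WT list, which is given as a description because peak height in WT and KO bears on the overlap that chose them. Their median width in WT was 1443 bp against 529 bp at lost sites, their median WT fold 20.5 against 5.49, and their median WT −log10 q 96.1 against 11.9. The share of WT peaks that were kept was 3.53% in the weakest decile, 39.2% in decile 8, 72.4% in decile 9 and 94.4% in the strongest, which still left 332 lost sites there. In KO the kept peaks had narrowed to a median of 459 bp, and the WT summit lay inside the KO peak at 13780 of them (95.9%). The KO summit lay a median of 40 bp from the WT summit (10th to 90th percentile 2 to 151 bp).

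The peaks that remained were small. The median number of CTCF fragments over the summit of a kept site was 98 in WT (10th to 90th percentile 51 to 155) and 25 in KO (17 to 50), where the smallest value was 15. In bulk chromatin, fewer cells with CTCF at a site and less CTCF there per cell cannot be told apart. With each library's fragments divided by its background per base, the KO level was a median of 0.359 times the WT level (0.222 to 0.716), and 722 kept sites (5.03%) were at or above 1. Spearman's rho between WT and KO fragments was 0.541 over the 14366 sites, which share their libraries. The plot of WT against KO signal shows this spread.

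**Figure D1:**
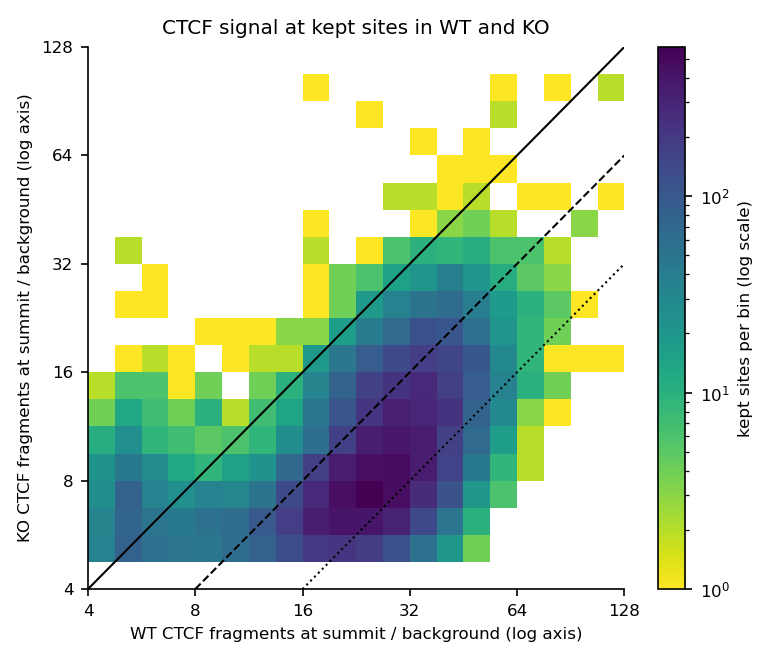
CTCF fragments at the summit divided by the background per base, in WT (x axis, log scale) and KO (y axis, log scale), for 14338 of 14366 kept sites, with the number of sites per bin as colour (log scale) and lines at equal levels (solid), at KO 0.5 times WT (dashed) and at KO 0.25 times WT (dotted). Most kept sites lie between the dashed and dotted lines, and a small group of weak WT peaks lies on and above the solid line.

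The edge of the rule was soft. The 3 kept sites with the smallest overlap shared 4, 4 and 9 bp with a KO peak and lay at the promoter of 4930502C17Rik, in exons of Mfsd8 and Abhd18, and at the promoters of Cdc123 and Nudt5. The 3 lost sites nearest to a KO peak lay 5, 6 and 7 bp from it, in an intron of Cbx7 and at the promoters of 2900072N19Rik and Gins1. Among WT peaks with a KO peak, 2 had peaks in 25 of the 26 lists and were kept, and 143 kept sites (0.995%) had peaks in 20 or more. A median kept site had peaks in 9 of the 26 lists.

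The 5 kept sites with the highest KO fold were not typical of the rest. Of these, 4 lay outside genes on chromosome Y and 1 in an intron of Cpeb4 on chromosome 11, at chr11:31922590-31922859. Their windows were masked over 59.2 to 100% of bases, none held the core, and SMC1 fragments there numbered 414 to 620 in WT and 378 to 568 in KO. They had peaks in 16 to 22 of the 26 lists, and neighbouring WT peaks on chromosome Y shared 1 KO peak. H3K4me3 peaks were present at these 5 sites in WT and WTLPS and absent in KO and KOLPS. The study's methods call its mice sex-matched, and the labels give no sex, so for peaks on chromosome Y genotype and sex cannot be told apart. Kept sites made up 22.0 to 25.9% of the WT peaks of each of the 19 autosomes, 15.7% (13.8 to 17.8%) on chromosome X and 21 of 33 on chromosome Y.

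The 10 kept sites printed above all held the core and had fewer SMC1 fragments in KO than in WT. Chosen by KO fold, they had KO to WT level ratios from 0.55 to 1.56, against a median of 0.359 over all kept sites. All 10 had an SMC1 peak in KO and in KOLPS, against 23.9% and 15.8% of all kept sites. The strongest of the 10, chr2:75603923-75606406 (2484 bp, outside genes, 53403 bp from the start site of Hnrnpa3, an RNA-binding protein gene), had 152, 144, 187 and 121 CTCF fragments at the summit in WT, WTLPS, KO and KOLPS. It was the highest of the 10 in KO and had more fragments in KO than in WT. SMC1 at the same site had 99, 110, 47 and 45 fragments, so both KO libraries were lower there than both WT libraries. The site at chr7:114020666-114021632 in an intron of Spon1, nearest to Rras2, a small GTPase gene, had 114, 89, 110 and 65 CTCF fragments and 86, 91, 43 and 29 SMC1 fragments. It was the only other of the 10 whose ratio exceeded 1, at 1.22.

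The other 8 had fewer CTCF fragments in KO than in WT. In an intron of Neo1, chr9:58927663-58930044 (nearest protein-coding start site Hcn4, a pacemaker channel gene) had 218, 216, 109 and 74 CTCF fragments and 221, 217, 43 and 39 SMC1 fragments. At chr10:41682537-41683679, at the promoter of the RNA gene Gm47099 and nearest to Ccdc162, CTCF fragments were 221, 179, 117 and 74 and SMC1 fragments 275, 246, 84 and 47. This was the site whose core had the letters common at lost sites, and it lay in a window masked over 77.1% of bases. At chr9:60857784-60860011, which reached the promoter of Uaca with its summit 3599 bp from the start site, the CTCF fragments were 191, 131, 103 and 68. The SMC1 fragments there were 100, 121, 45 and 37. At these sites all KO values were below all WT values. The remaining sites, near A730009L09Rik, Stfa3 (a stefin, an inhibitor of cysteine proteases), Acbd6, Tent2 (a poly(A) polymerase) and Top1 (DNA topoisomerase I), had 102 to 108 CTCF fragments in KO and 62 to 80 in KOLPS. H3K4me3 lay at 1 of the 10 sites in WT and H3K27ac at 2, against 21.5% and 19.2% of all kept sites.

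The 3 printed lost sites had 149 to 154 CTCF fragments in WT, within the 114 to 249 of the 10 kept sites. Their windows were masked over 35.8%, 12.9% and 0% of bases, while 73.8% of all lost sites with the core lay in masked windows. Near Grpel1, in an exon of 2210406O10Rik, chr5:36458398-36459641 had 154 CTCF fragments in WT, 130 in WTLPS, no peak in KO and 20 in KOLPS. The site in an intron of Rtn3, chr19:7435776-7437124, had 152 and 118 in WT and WTLPS, and chr3:75909143-75911574 in an exon of Golim4 had 149 and 123, with no peak in either KO list. SMC1 peaks lay at all 3 in WT and WTLPS and at none in KO or KOLPS.

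Kept sites in KO were compared with the LPS-treated CTCF lists, which the rule did not use. A KOLPS CTCF peak overlapped 8983 of the kept sites, 62.5% (61.7 to 63.3%), and 437 of the lost sites, 0.947% (0.862 to 1.04%), against 15.6% of all WT CTCF peaks. The share of WT peaks with a KO peak, which the rule set, was 23.7%. In WTLPS the shares were 97.8% of kept and 73.6% of lost sites, against 79.4% of all WT peaks. All 4 CTCF lists had a peak at 8874 kept sites (61.8%). The KOLPS level was a median of 0.337 times the WTLPS level where both had a peak, and Spearman's rho between KO and KOLPS fragments was 0.772 over the 8983 kept sites called in both.

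Kept sites that had no KOLPS peak were the weaker ones in KO. Their median KO level was 19 fragments (10th to 90th percentile 15 to 26), against 32 (20 to 57) at kept sites with a KOLPS peak. They were masked more often, at 20.6% (19.5 to 21.7%) against 9.82% (9.22 to 10.5%). Within decile 9, KOLPS peaks lay at 61.1% of kept and 6.89% of lost sites, a difference of 54.2 points (52.3 to 56.1). Of kept sites with the core, 71.7% (70.2 to 73.1%) had a KOLPS peak in unmasked DNA and 41.5% (38.4 to 44.6%) in masked DNA.

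Cohesin lay at most kept sites in WT and was no longer called at most of them in KO. In WT an SMC1 peak overlapped 91.3% (90.9 to 91.8%) of kept sites, and in KO 23.9% (23.2 to 24.6%). With LPS the shares were 89.9% (89.3 to 90.3%) for WTLPS and 15.8% (15.2 to 16.4%) for KOLPS. At lost sites the shares were 42.8% in WT, 4.86% in KO, 39.0% in WTLPS and 2.55% in KOLPS, and over all WT CTCF peaks they were 54.3%, 9.38%, 51.1% and 5.69% in the same order. At the same kept sites SMC1 was called in WT and not KO at 9754 and in KO and not WT at 62, a difference of −67.5 points (−68.2 to −66.7). Its median was 70 fragments over the kept sites called in WT and 28 over those called in KO, and 21 was the lowest value in both.

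Of the sites with an SMC1 peak in WT, 25.7% (24.9 to 26.4%) of the 13123 kept ones and 9.96% (9.55 to 10.4%) of the 19757 lost ones had one in KO, against 16.2% over all WT CTCF peaks. Kept and lost sites of like WT strength were close in WT SMC1 and far apart in KO SMC1. In decile 9 a WT SMC1 peak lay at 96.9% of kept and 94.7% of lost sites, a difference of 2.19 points (1.07 to 3.46). In KO the shares were 21.1% and 4.67%, a difference of 16.4 points (14.8 to 18). In decile 10 the KO shares were 31.5% and 1.51%, a difference of 30 points (27.7 to 31.5). With LPS, 17.1% (16.5 to 17.8%) of kept and 5.95% (5.61 to 6.30%) of lost sites with a WTLPS SMC1 peak had one in KOLPS.

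**Figure D2:**
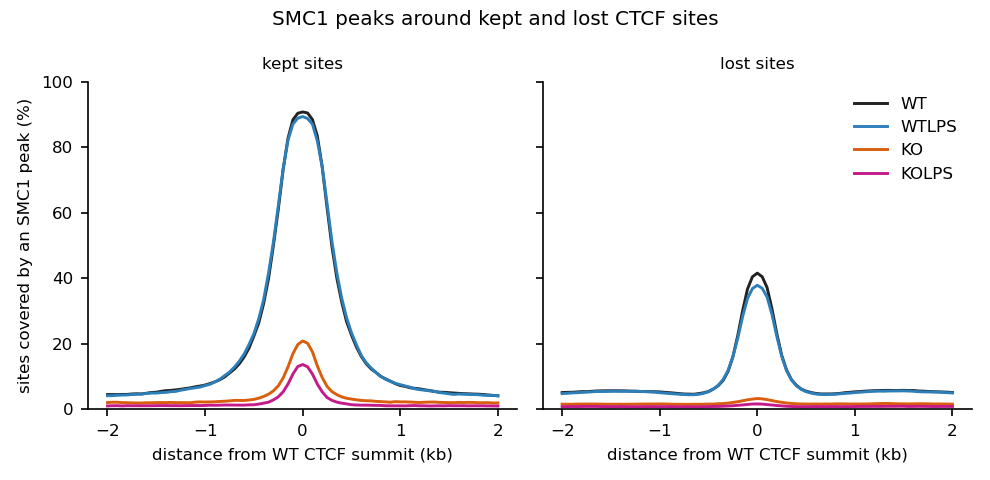
Share of kept sites (left) and lost sites (right) covered by an SMC1 peak at each distance from the WT CTCF summit, in 50 bp steps over 2 kb to either side, with 1 line per condition. WT and WTLPS lie nearly on each other and centre on the summit, and the KO and KOLPS lines are low and keep a small central rise at kept sites.

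Cohesin in KO was more frequent at kept sites that carried active marks and at those with more CTCF left. Among kept sites with WT SMC1, the KO SMC1 share was 54.4% (52.4 to 56.3%) of the 2492 with WT H3K27ac and 18.9% (18.2 to 19.7%) of the 10631 without. At lost sites these shares were 37.0% (35.4 to 38.6%) and 4.33% (4.03 to 4.65%), so kept sites were higher with and without the acetyl mark. Kept sites with KO SMC1 had a median of 39 CTCF fragments in KO (10th to 90th percentile 20 to 71), and those without had 23 (16 to 40). Their WT medians were closer, at 110 and 95 fragments. H3K27ac lay at 40.2% of the kept sites with KO SMC1 and 12.6% of those without, and H3K4me1 at 60.2% and 35.7%. The core was as frequent in both, at 31.6% (30 to 33.1%) and 32.6% (31.7 to 33.5%).

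**Figure D3:**
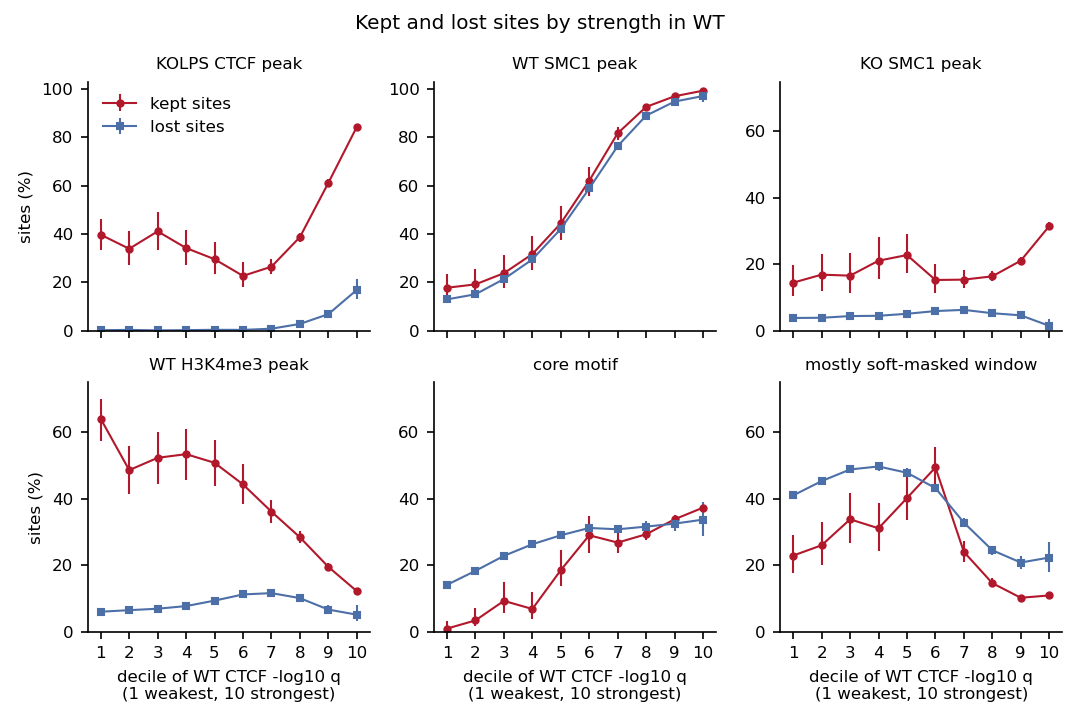
Share of kept (red) and lost (blue) sites with a KOLPS CTCF peak, a WT or KO SMC1 peak, a WT H3K4me3 peak, the core motif, or a mostly soft-masked window, in deciles of all WT CTCF peaks by −log10 q (1 weakest, 10 strongest), with 95% Wilson intervals. WT SMC1 rises with strength alike in both groups, KO SMC1 stays below 7% at lost sites in all deciles, and WT H3K4me3 falls from 64.0% to 12.2% of kept sites.

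Deciles 1 to 5 held 892 kept sites, 6.21% of the total. They had a median GC content of 32.3%, and 7.62% (6.06 to 9.55%) held the core. Promoters held 59.3% (56.0 to 62.5%) of them, WT H3K4me3 lay at 54.3% (51 to 57.5%) and WT SMC1 at 27.2% (24.4 to 30.3%). The 4694 KO peaks without a WT peak were close to them in GC content (median 32.3%), in the share at promoters (55.8%) and in WT H3K4me3 (54.1%). They had WT SMC1 less often, at 9.03%, and held the core less often, at 0.320%. Kept sites of the strongest decile had a median GC content of 42.8%, and 37.3% (36.0 to 38.6%) of them held the core.

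Kept sites lay closer to the start sites of genes than lost sites, though about as many lay outside genes. Promoters, taken as 2.5 kb to either side of a start site, held 3979 kept sites, 27.7% (27 to 28.4%), against 18% (17.7 to 18.4%) of lost sites and 20.3% of all WT CTCF peaks. Exons held 14.6% of kept and 9.70% of lost sites, introns 25.3% and 40.7%, and DNA outside genes 32.4% and 31.6%, where the difference of 0.801 points had an interval from −0.0703 to 1.68. The median distance to the nearest protein-coding start site was 17742 bp for kept and 22434 bp for lost sites. In decile 9, promoters held 25.7% and 17.2%, a difference of 8.46 points (6.19 to 10.6). Kept peaks were wider, and with the WT summit itself required inside the promoter, the shares were 23.0% of kept and 16.2% of lost sites.

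A kept site lay at the promoter of 2715 of 21951 protein-coding genes (12.4%), which was 42.0% of the 6466 genes with any WT CTCF peak there. Genes whose promoter had H3K4me3 in WT had one more often, at 18.6% against 4.29% of the others. Gene lists were described by their counts and shares alone. The genes of GM-CSF, JAK and STAT signalling had a kept site at 8 of 20 promoters, cohesin and CTCF regulators at 6 of 19, ribosomal proteins at 21 of 77, the cell cycle and DNA replication list at 9 of 35 and the TLR and NF-κB pathway at 7 of 28. LPS-induced cytokines and chemokines had one at 5 of 25, antigen presentation genes at 4 of 24, myeloid and dendritic cell transcription factors at 3 of 20, Hox genes at 5 of 39 and imprinted genes at 2 of 32. Only genes with a WT CTCF peak at the promoter, 7 to 45 per list, could have a kept site. Of these, in the order given, a kept site lay at 72.7%, 46.2%, 46.7%, 69.2% and 63.6%, then at 45.5%, 44.4%, 37.5%, 41.7% and 28.6%. The share over all protein-coding genes with such a peak was 42.0%.

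Genes of cytokine signalling included several feedback inhibitors. The kept site at Socs3, a suppressor of JAK signalling (chr11:117969676-117970454), had 84, 57, 45 and 22 CTCF fragments in WT, WTLPS, KO and KOLPS, so that each KO value lay below both WT values. SMC1 there had 98, 108 and 31 fragments and no peak in KOLPS. The site at Cish, an inhibitor induced by STAT5 (chr9:107293415-107294781), had 106, 69, 35 and 20 CTCF fragments and 154, 140 and 21 SMC1 fragments, again with no SMC1 peak in KOLPS. Bcl2l1, which encodes the survival protein Bcl-xL, had 74, 51 and 33 CTCF fragments in WT, WTLPS and KO and no peak in KOLPS, while SMC1 had 93, 75, 35 and 35. Stat6, the transcription factor of IL-4 signalling, kept 30 and 28 CTCF fragments of 121 and 114. The other genes of the list with a kept site were Jak2, Pim1, Socs1 and Stat2.

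The 7 genes of the TLR and NF-κB pathway with a kept site included kinases, inhibitors and adaptors. Irak3, which restrains TLR signalling (chr10:120201863-120203225), had 131, 86, 49 and 30 CTCF fragments, and the kinase gene Irak2 (chr6:113637152-113638773) had 125, 79, 42 and 20. Both had SMC1 in all 4 conditions, with 107, 95, 24 and 24 fragments at Irak3 and 160, 129, 32 and 26 at Irak2. Tnfaip3, which encodes the NF-κB inhibitor A20 (chr10:19015221-19015712), stood out for its cohesin, with 164, 185, 95 and 89 SMC1 fragments beside 86, 62, 40 and 25 CTCF fragments. Nfkbia, which encodes IκBα, kept 24 and 19 CTCF fragments of 137 and 108. The adaptors Tab1 and Tirap and the ligase Traf6 also had a kept site.

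Among LPS-induced genes the highest KO fold was at Csf3, the gene of G-CSF (chr11:98699443-98700420), with 128, 89, 37 and 30 CTCF fragments. No H3K27ac or H3K4me3 peak overlapped this site in any condition. Il12b, the gene of the shared subunit of IL-12 and IL-23 (chr11:44398604-44399789), had 81, 62, 23 and 21 CTCF fragments and 54, 67, 22 and 23 SMC1 fragments, with H3K27ac in each condition but KO. At the chemokine genes Ccl17 and Cxcl3 the KO values were 22 and 19 fragments and no KOLPS peak was called, and Il6 was the fifth gene of the list with a kept site. For antigen presentation the site at H2-DMa, the peptide editor of MHC class II (chr17:34132272-34135851), had 187, 135, 65 and 46 CTCF fragments and 302, 271, 48 and 36 SMC1 fragments. The other 3 were H2-Ob, which restrains H2-DM, and the peptide loading genes Tapbp and Tap2.

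Cohesin and CTCF regulators had a kept site at 6 of the 13 genes with a WT CTCF peak at the promoter. This was 46.2%, against 42.0% of all protein-coding genes with such a peak. At Smc3, a core subunit of the ring (chr19:53599383-53600235), there were 92, 55, 29 and 15 CTCF fragments. Pds5b and Pds5a, which regulate cohesin release, had 29 and 52 CTCF fragments in WT and 23 and 22 in KO. Nipbl, the cohesin loader, had 46 in WT and 19 in KO. Relative to the background, the KO to WT ratios were 1.01 at Pds5b, 0.536 at Pds5a and 0.524 at Nipbl. None of these 3 genes had a KOLPS CTCF peak or a KO SMC1 peak at the site. Stag1 and Zfp143 completed the list. Of the transcription factors, Cebpa kept 15 of 57 CTCF fragments in KO, and Ikzf1 (Ikaros) had more fragments in KO than in WT, 26 against 17, at a site of the weakest decile.

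In the Hox clusters, where CTCF separates active from Polycomb-silenced genes in other tissues, the site near Hoxd8 (chr2:74701223-74703352) had 162, 103, 67 and 45 CTCF fragments and H3K27me3 in WT and KO. It had SMC1 at 60 and 65 fragments in WT and WTLPS and no SMC1 peak in KO or KOLPS. The same held for SMC1 at Hoxa7 and Hoxb5, and at Hoxa13 a KO SMC1 peak of 23 fragments remained. Upstream of the imprinted gene H19, whose control region is bound by CTCF on the maternal allele, chr7:142579988-142581132 had 89 and 76 CTCF fragments in WT and WTLPS, 21 in KO and no peak in KOLPS. H13 was the other imprinted gene.

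At ribosomal protein genes the named kept sites lay in promoters marked by H3K4me3 in all 4 conditions. Rpl36 (chr17:56612856-56613566) had 102, 86, 64 and 46 CTCF fragments and SMC1 at 29 and 28 in WT and WTLPS alone. Rplp0 had 122, 78, 62 and 39 CTCF fragments, Rpl5 had 78, 57, 54 and 43, and Rps29, whose site also spans the promoter of the RNA gene Rn7s1, had 272, 226, 71 and 47. SMC1 at Rpl5 was called in WTLPS and KO alone, with 23 and 24 fragments. In the cell cycle list, Mcm5 of the replicative helicase (chr8:75108291-75109225) had 102, 88, 51 and 23 CTCF fragments and 167, 161, 35 and 22 SMC1 fragments. Ccnd1 (cyclin D1), Rrm2 (ribonucleotide reductase) and Cdkn1a, the cell cycle inhibitor p21, kept 29, 25 and 23 CTCF fragments in KO, and of these 3 only the Cdkn1a site had an SMC1 peak in KO. Over the 37 list genes named by this rule, the KO to WT ratio ran from 0.222 to 1.94. A KOLPS CTCF peak lay at 27 of them and a KO SMC1 peak at 23, against 62.5% and 23.9% of all kept sites. These genes were named by their KO fold, so their counts do not describe kept sites in general.

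Peaks of active marks overlapped kept sites more often than lost sites in every condition, counted over the whole WT peak, which was wider at kept sites. H3K4me3 overlapped 21.5%, 20.1%, 20.8% and 17.7% of kept sites in WT, WTLPS, KO and KOLPS, against 8.46%, 7.73%, 8.45% and 6.84% of lost sites and 11.6%, 10.7%, 11.4% and 9.43% of all WT CTCF peaks. H3K27ac overlapped 19.2%, 17.7%, 15.9% and 13.5% of kept sites, against 10.3%, 10.1%, 8.62% and 7.14% of lost sites and 12.4%, 11.9%, 10.4% and 8.67% of all. H3K4me1 overlapped 41.6%, 42.3%, 43.4% and 31.7% of kept sites, against 30.3%, 30%, 28.8% and 20.6% of lost sites and 33.0%, 32.9%, 32.3% and 23.2% of all. In decile 9, where widths were closer (median 1448 and 1356 bp), WT H3K4me3 lay at 19.5% of kept and 6.65% of lost sites, a difference of 12.8 points (11.1 to 14.4). WT H3K27ac lay at 18.6% and 8.26% there, a difference of 10.3 points (8.49 to 12). At the summit base alone, over all deciles, WT H3K4me3 covered 14.9% of kept and 6.50% of lost sites. WT H3K27ac covered 6.61% and 6.20% of these summits, and WT H3K4me1 25.1% and 24.2%. In decile 9 the summit shares were 6.09% and 2.81% for WT H3K27ac and 21.3% and 16.4% for WT H3K4me1.

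**Figure D4:**
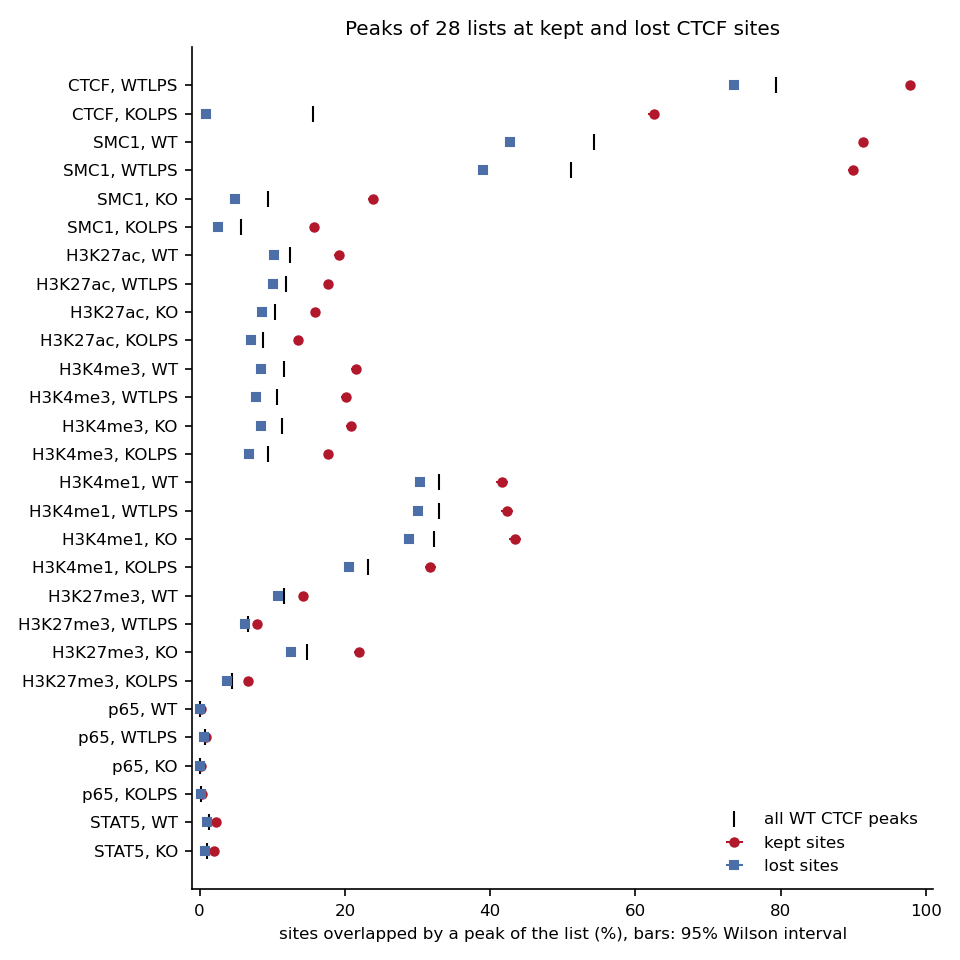
Share of kept sites (red circles), lost sites (blue squares) and all WT CTCF peaks (black ticks) overlapped by a peak of each of the 28 lists that the rule did not use, with 95% Wilson intervals that are mostly narrower than the symbols. Kept sites lie to the right in all 28 lists, with the widest gap for KOLPS CTCF (62.5% against 0.947%).

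At the same kept sites the net shares with H3K4me3 and H3K27ac differed by a few points between WT and KO, while single sites changed both ways. H3K4me3 was called in KO alone at 285 and in WT alone at 391 kept sites, a difference of −0.738 points (−1.09 to −0.383). H3K27ac was called in KO alone at 524 and in WT alone at 990 of the 2755 kept sites that had it in WT. This was a difference of −3.24 points (−3.77 to −2.72), and at lost sites the H3K27ac difference was −1.67 points (−1.89 to −1.45). Between WTLPS and KOLPS it was −4.13 points (−4.67 to −3.59) at kept sites. H3K4me1 differed there by 1.82 points (1.17 to 2.47) between WT and KO and by −10.6 points (−11.3 to −9.95) between WTLPS and KOLPS. The 3089 kept sites with WT H3K4me3 had KO SMC1 more often than those without, at 38.0% (36.3 to 39.7%) against 20% (19.3 to 20.8%), and held the core less often, at 22.8% (21.4 to 24.3%) against 35.0% (34.1 to 35.9%).

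H3K27me3 was called at more kept sites in KO than in WT, and at more of their summits. A WT peak of this mark overlapped 14.3% of kept sites and a KO peak 22.0% (21.3 to 22.7%), with 1548 sites in KO alone and 448 in WT alone, a difference of 7.66 points (7.06 to 8.25). At lost sites the shares were 10.8% and 12.6%, a difference of 1.85 points (1.58 to 2.12), and over all WT CTCF peaks 11.6% and 14.8%. In WTLPS and KOLPS they were 7.96% and 6.68% of kept sites, 6.22% and 3.75% of lost sites and 6.64% and 4.46% of all.

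Around kept sites in WT, H3K27me3 peaks stopped short of the CTCF summit. The base at the summit was covered at 2.49% (2.25 to 2.76%) of kept sites and bases 1 kb away at a mean of 7.03%, a ratio of 0.354. In KO the summit was covered at 11.1% (10.6 to 11.7%) and the sides at 10.5%, a ratio of 1.06, so the gap was no longer seen. The summit base was covered in KO alone at 1341 kept sites and in WT alone at 99, a difference of 8.65 points (8.15 to 9.14). Among the 2059 kept sites with a WT H3K27me3 peak over any part, the summit was covered at 17.4% in WT and 46.6% in KO. At lost sites as a whole no such gap was present in WT, where the summit and the sides were both covered at 6.54%.

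**Figure D5:**
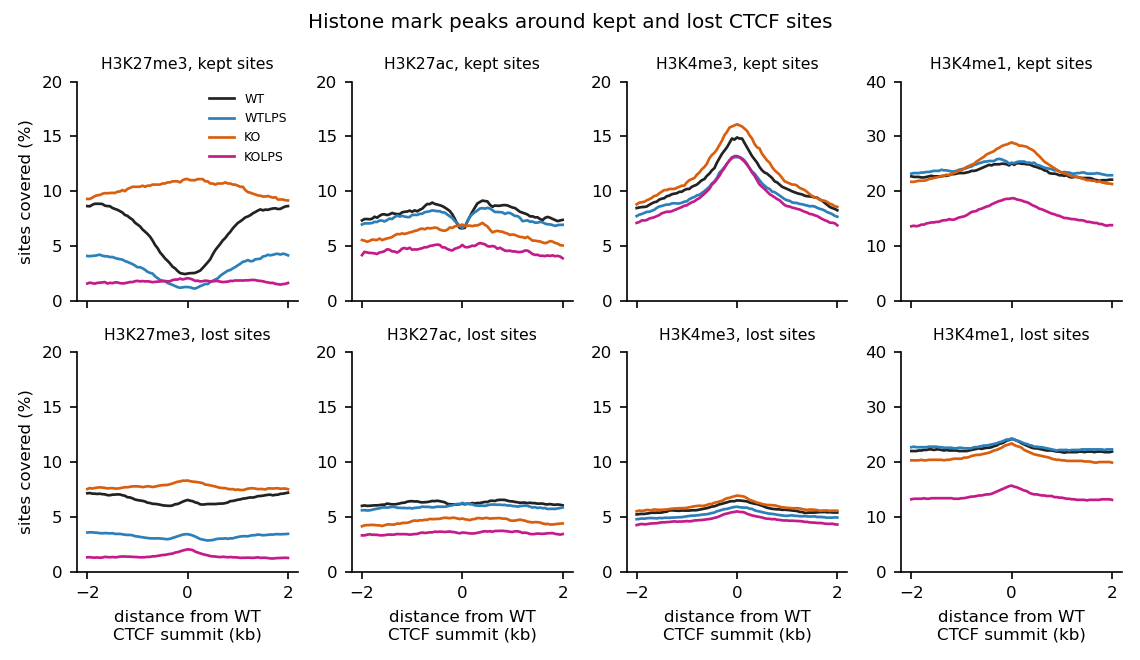
Share of kept sites (top) and lost sites (bottom) covered by a peak of H3K27me3, H3K27ac, H3K4me3 or H3K4me1 (columns) at each distance from the WT CTCF summit, in 50 bp steps over 2 kb to either side, with 1 line per condition. At kept sites the H3K27me3 lines of WT and WTLPS dip at the summit (2.49% and 1.26%) and those of KO and KOLPS do not (11.1% and 2.07%).

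Lost sites of like WT strength had the gap in WT as well. In decile 9 the summit to sides ratio in WT was 0.301 at kept and 0.400 at lost sites, and in KO 0.987 and 1.23. The summit was covered at 2.26% of kept and 2.75% of lost sites of this decile in WT and at 11.2% and 10.3% in KO, differences of 8.92 points (8.01 to 9.83) and 7.54 points (6.20 to 8.89). With LPS the mark was called less in both genotypes, and the same shape remained, with a ratio of 0.400 in WTLPS and 1.13 in KOLPS at kept sites. In decile 9 the summit was covered at 0.844% of kept sites in WTLPS and 1.60% in KOLPS, a difference of 0.753 points (0.377 to 1.13). At lost sites of this decile the shares were 1.74% and 1.86%, a difference of 0.120 points (−0.622 to 0.862). H3K27ac showed a shallower and narrower dip, with a ratio of 0.795 in WT and 1.13 in KO. H3K4me3 peaked at the summit of kept sites in all 4 conditions, with ratios of 1.44 to 1.53.

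Factors of the stimulated cells met few kept sites. p65 peaks overlapped 0.160%, 0.884%, 0.153% and 0.397% of them in WT, WTLPS, KO and KOLPS, against 0.109%, 0.699%, 0.0743% and 0.259% of all WT CTCF peaks. In numbers, 127 kept sites had a p65 peak in WTLPS and 57 in KOLPS. STAT5 overlapped 2.25% (2.02 to 2.5%) of kept sites in WT and 1.95% (1.74 to 2.19%) in KO, against 0.962% and 0.799% of lost sites and 1.28% and 1.08% of all WT CTCF peaks. The labels give an antibody to STAT5 for these lists and the study's ChIP methods one that it uses elsewhere for phosphorylated STAT5, so which form was measured is uncertain.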

How the data were processed

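ChIP-seq peak lists of mouse BMDCs were used as the authors deposited them. Per the labels, DNA was tagmented before paired-end sequencing. Per the study's methods, reads were trimmed, aligned to mm10 with BWA and freed of duplicates with Picard, and MACS2 called peaks. The submitters' processing notes give BWA 0.7.12, Picard 1.77, MACS2 2.1.2 and deepTools 3.1.3, and the methods name other versions. The methods describe 2 biological replicates and peak calls for each, but each condition and antibody has 1 list, and the study's reporting summary says in general, without naming the assay, that replicates were merged and processed again. The lists may thus be of merged replicates. The peak names of the H3K4me1 lists give another antibody supplier than the labels. The columns deposited by the authors hold a fold enrichment (the ratio of pileup to the local background), −log10 p, −log10 q, an integer score and, in narrow lists, the summit position. H3K4me1 and H3K27me3 lists are broad peaks. Thresholds differ between antibodies, and the lowest −log10 p was 7.001 to 7.006 in the CTCF and SMC1 lists. The series has 1 input for each condition, and which input each list was called against is not given in the sources used here.

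Overlaps of at least 1 bp, distances and shares were computed in Python 3.11.15 with numpy 2.4.6, pandas 2.3.3 and scipy 1.17.1. Fragments at a summit were recovered as the whole number that returns the deposited fold and −log10 p within 0.002, which succeeded for over 99 in 100 CTCF and SMC1 peaks. Where several peaks of a list overlapped a site, the strongest was taken. Genes were those of GENCODE vM21, with promoters reaching 2.5 kb from the longest transcript's start on both sides, and sequence came from the RefSeq copy of GRCm38.p6. All peak ends lay within its chromosome lengths. A peak was placed at a promoter when any part of it overlapped. The summits of some named sites lay farther from the start, as at H2-Ob (3686 bp) and Hoxa13 (3731 bp). The overlap, pileup and motif functions were tested on simulated data. With 1 list per group nothing was tested across samples. Sites named in the text included the 5 kept sites with the highest KO fold. The 10 highest with the core and a CTCF peak in all 4 conditions were taken under the limits given with their sequences. Up to 4 genes of each gene list were named by KO fold. The others were the 3 kept and 3 lost sites nearest to the edge of the rule, and the 3 lost sites with the core and the highest WT fold. The site of 1 list gene is not reported here. The remaining list genes with a kept site, and the most frequent letters of the core, were chosen after their values were seen. The members and lists were chosen with earlier results of these data known. Alternatives were another overlap, a stricter p-value, a 200 bp window, other promoters and other motif rules, with 3 more added after seeing the data. Neighbouring sites are not independent, so intervals are too narrow as errors of a condition.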

Additional observations from a re-analysis of the deposited data

Results flagged for a closer look

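For 2 marks the KO minus WT difference in the share of kept sites had opposite signs without and with LPS. It was 1.82 points for H3K4me1 without LPS (interval of the paired difference 1.17 to 2.47) and −10.6 points with LPS (−11.3 to −9.95), and at lost sites −1.53 and −9.46 points. For H3K27me3 it was 7.66 points without LPS (7.06 to 8.25) and −1.28 points with LPS (−1.72 to −0.844), and at lost sites 1.85 and −2.47 points. Whether the LPS and no-LPS values differ was not tested, since each condition has 1 list. The lists of a mark end at different p-values, and the H3K27me3 lists of WTLPS and KOLPS differ in size (61556 and 26960 peaks at a −log10 p of 3.47 or more). With 1 lowest −log10 p in all 4 lists of a mark, chosen after seeing the data, the H3K4me1 differences at kept sites were 3.42 and −8.90 points and the H3K27me3 differences 5.17 and −0.968 points. At the summit base alone, H3K27me3 was called at more kept sites in KO in both, with differences of 8.65 points without LPS and 0.807 points (0.572 to 1.04) with LPS, and these were 6.33 and 0.849 points when the lists shared their lowest −log10 p.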

How the results depend on the processing

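The share of WT CTCF peaks still called in KO (23.7%) was 6.05% with at least 50% of the WT peak covered, 22.8% with the WT summit inside a KO peak and 24.4% with −log10 p of at least 10. The share of kept sites with a KOLPS CTCF peak (62.5%) was 61.1% in a 200 bp window, 58.6% with the stricter p and 64.4% with the summit rule. The KO SMC1 share (23.9%) was 21.3% in the window, 18.1% with the stricter p and 23.1% without places in 20 or more lists. The KO H3K27ac share (15.9%) was 9.46%, 8.63% and 15.3% under the same 3. In the window WT H3K27ac lay at 9.72% of kept and 7.83% of lost sites, and WT H3K4me1 at 28.4% and 26.2%. Also in the window, WT H3K27me3 overlapped 3.01% of kept and 7.61% of lost sites, the opposite order to overlap with the whole peak, and KO H3K27me3 12.7% and 9.54%. The KO SMC1 difference between kept and lost sites (19 points) was 17.5 in the window, 20.3 within deciles of WT strength, 15.5 without and 21.7 with WT H3K27ac, and 15.7 where SMC1 was called in WT, a restriction added after seeing the data. The promoter share (27.7%) was 17.1% with 1 kb, 36.6% with all transcripts and 23.0% for the summit. The share with the core (32.4%) was 45.2% within 100 bp, 58.9% with 1 mismatch and 11.5% with a matrix from lost sites, which lost sites exceeded at 20.8%. That matrix took up the letters most frequent in masked DNA. A matrix from unmasked lost sites, added after seeing the data, gave 43.9% of kept and 27.9% of lost sites. The order of kept and lost sites turned for the core with the matrix from lost sites and for WT H3K27me3 in the window. No paired analysis was possible because each condition and antibody has 1 list, so samples could not be paired. The paired differences given are over sites. Depth is known only at peaks, so a site without a peak may hold CTCF or SMC1 under the threshold.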
